A study of Petromyzon marinus with 12 samples.

Results

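PTGS2 and PRXL2B are 2 of the 22407 genes of a count table made from whole sea lamprey (Petromyzon marinus) embryos. They were found by their symbols, and each symbol was carried by 1 gene model. Both were chosen by their values in these libraries: PTGS2 by its level at day 2 and PRXL2B by its level at day 3, in each case in the knockouts against wildtype. Those contrasts are therefore described here with no test, and tests are given for PTGS2 at day 3 and for PRXL2B at day 2.

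The study compared KMT5A knockout, KMT1 knockout and wildtype embryos, which the labels give as their genotypes, at day 3 and at day 2 of development. Each of the 6 groups held 2 libraries. Each library was made from a pool of approximately 100 embryos, which were kept at 18 °C and then frozen. On each day both knockouts were compared with the same 2 wildtype libraries, so their contrasts with wildtype are not independent. Knockouts were made by injecting Cas9 protein with guide RNAs and fluorescein dextran, and embryos were screened for fluorescence 24 hours after fertilization. The same injection text stands beside the wildtype samples, so whether wildtype embryos were injected is not known, and an effect of injection and of the knockout cannot be told apart. KMT1 is the family of enzymes that methylate histone H3 at sites of silent chromatin, and KMT5A methylates histone H4.

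Prostaglandins are lipid signals made from arachidonic acid. Phospholipases free the acid from membranes, a cyclooxygenase oxidizes it to the unstable prostaglandin H2, and terminal synthases turn this into the final prostaglandins. PTGS2 is the cyclooxygenase whose transcription is induced by many signals in mammals and is short-lived in most cells. PRXL2B is a thioredoxin-like enzyme that, in mammals, reduces prostaglandin H2 to a prostaglandin of the F class. In zebrafish embryos, prostaglandin E2 supports the cell movements of gastrulation.

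In the deposited annotation PTGS2 was model PM20245 on the plus strand of chromosome 50, from 3599016 to 3626279. It was described there as prostaglandin G/H synthase 2 with 62.7 to 63.7% identity to the human protein. This model had 9 transcripts with up to 14 exons, which together covered 5229 bases, and a longest coding length of 1815 bases. PRXL2B was model PM05174 on the minus strand of chromosome 3, from 16263030 to 16272444, described as prostamide/prostaglandin F synthase with 54.7% identity. It had 1 transcript of 8 exons, covering 1375 bases, with a coding length of 624 bases. No other gene model overlapped either gene. The assembly is not named in the annotation. The count table held no row with the symbol PTGS1, the other cyclooxygenase of most vertebrates. A RefSeq gene set of another assembly held 0 genes with the symbol PTGS1, 0 with PTGS2 and 1 with PRXL2B. The name PTGS2 is therefore that of the deposited annotation, and which cyclooxygenase the model corresponds to was not tested.

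Total counts were 61886305 to 89061394 per library, and levels are given as CPM, which is the count scaled to a common library size, with TMM factors applied to the totals. A 28S ribosomal RNA gene and a coding model together took 15.3% of the counts in KMT5A knockout replicate 1 and 6.99% in KMT1 knockout replicate 2, both of day 3, and 0.411 to 0.599% elsewhere. The guide targets are not given in the sources used here, so genes were matched to the knockout labels by name. KMT5A averaged 79.6 CPM in KMT5A knockouts and 203 CPM in wildtype at day 3, and 375 and 381 CPM at day 2. SUV39H2, matched by name to the KMT1 label, averaged 34.7 CPM in KMT1 knockouts and 53.8 CPM in wildtype at day 3, and 148 and 119 CPM at day 2. At day 3 both genes were called lower in the knockout matched to them (edgeR adjusted p 6.25e-05 for KMT5A and 0.00624 for SUV39H2). At day 2 neither was, with log2 fold changes of -0.02 and 0.31 (edgeR adjusted p 1 and 0.0677). Whether SUV39H2 was the gene targeted in KMT1 knockouts is not known. In KMT5A knockouts SUV39H2 averaged 166 CPM at day 2 and was called higher than wildtype (log2 fold change 0.48, edgeR adjusted p 0.0134). It was not called in KMT5A knockouts at day 3 (-0.18, edgeR adjusted p 0.318). Of 20 early embryo marker symbols, 11 were in the table, and 8 of these were above 0 in every library. Their summed level was 1071 to 1689 CPM.

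PTGS2 was abundant in both knockouts at day 2 and far less so in every other group. It had 182 and 172 CPM in the KMT5A knockout libraries at day 2. It had 186 and 142 CPM in the KMT1 knockout libraries at day 2. Wildtype at day 2 had 11.8 and 8.79 CPM. Every knockout library thus lay far above both wildtype libraries, and the 2 knockouts overlapped each other. The counts behind these values were 18727 and 14649 in KMT5A knockouts, 17864 and 13998 in KMT1 knockouts, and 1074 and 885 in wildtype. Group means were 177 ± 7.21 CPM in KMT5A knockouts, 164 ± 30.5 CPM in KMT1 knockouts and 10.3 ± 2.15 CPM in wildtype (SD, n = 2 each). These are fold changes of 17.2 for KMT5A and 15.9 for KMT1, or 4.10 and 3.99 on the log2 scale. In whole-embryo RNA, more cells that express a gene and more RNA per cell cannot be told apart.

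Among genes above 0 in all 4 compared libraries, this was the largest log2 fold change at day 2 in either knockout, over 13798 genes for KMT5A and 13994 genes for KMT1. PTGS2 was chosen by these day 2 values, so its rank is only a description. The next largest was 3.69 for KMT5A and 2.85 for KMT1. By mean level PTGS2 stood at percentile 92.1 of the genes detected in KMT5A knockouts, 91.5 in KMT1 knockouts and 47.4 in wildtype. Blood and immune cells, a source of PTGS2 in adult vertebrates, were represented by 5 of 10 marker symbols in the table. None of these was above 0 in all libraries, and the leukocyte marker PTPRC was at 0 in every library. RUNX1, TAL1 and SPI1 were above 0 in every day 2 library, and their zeros were all at day 3. Their day 2 counts were 1181 to 1574 for RUNX1, 99 to 192 for TAL1 and 37 to 117 for SPI1. The summed marker level at day 2 was 16.1 to 17.0 CPM in KMT5A knockouts, 14.2 to 17.1 CPM in KMT1 knockouts and 17.7 to 18.9 CPM in wildtype.

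At day 3 PTGS2 stood at percentile 46.7 of the genes detected in KMT5A knockouts, 49.1 in KMT1 knockouts and 47.6 in wildtype. The libraries of all 3 genotypes overlapped. KMT5A knockouts had 12.8 and 13.8 CPM. KMT1 knockouts had 17.0 and 11.8 CPM. Wildtype had 12.996 and 12.6 CPM, which lay within the range of the KMT1 knockout libraries. The log2 fold change was 0.06 in KMT5A knockouts (SE 0.207, 95% interval -0.42 to 0.54, edgeR adjusted p 1), and 5.3% of the 15615 genes tested were called in that comparison. In KMT1 knockouts it was 0.17 (SE 0.206, 95% interval -0.31 to 0.65, edgeR adjusted p 0.797), with 6.26% of genes called. As folds, the intervals ran from 0.745 to 1.45 for KMT5A and from 0.808 to 1.57 for KMT1. Between the knockouts at day 3, KMT5A over KMT1, the log2 fold change was -0.11 (95% interval -0.59 to 0.37, edgeR adjusted p 1), with 1.47% of genes called. None of these 3 values passed the threshold of an adjusted p of 0.05, and the sign of each changed with the library left out: the KMT1 value was -0.12 without KMT1 knockout replicate 1, the KMT5A value -0.01 without KMT5A knockout replicate 2 and -0.10 with library totals in place of TMM, and the value between knockouts 0.17 without KMT1 knockout replicate 1.

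**Figure D1:**
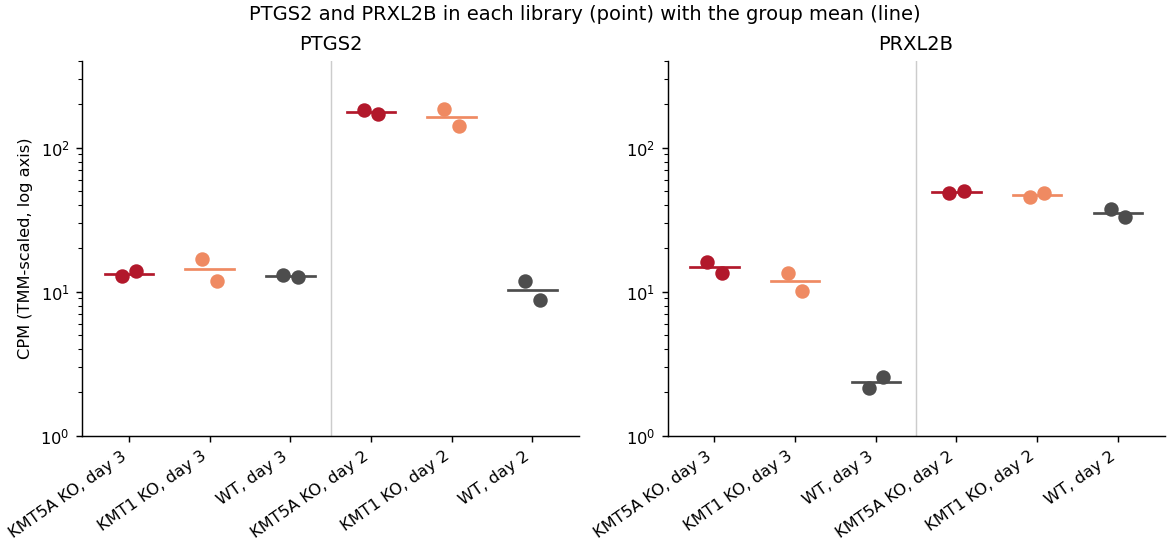
Level of PTGS2 (left) and PRXL2B (right) in each of the 12 libraries, in CPM on a log axis, by genotype and day; points are libraries and lines are group means. PTGS2 stood at 142 to 186 CPM in the 4 day 2 knockout libraries and at 8.79 to 17.0 CPM in the other 8, while PRXL2B was lowest in day 3 wildtype, at 2.15 and 2.55 CPM.

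Across days, the PTGS2 level at day 3 was 7.51% of that at day 2 in KMT5A knockouts, 8.77% in KMT1 knockouts and 124% in wildtype. On the log2 scale the change of day 3 over day 2 was -3.73 in KMT5A knockouts, -3.51 in KMT1 knockouts and 0.31 in wildtype. The order of the group means ran from day 2 KMT5A knockouts, through day 2 KMT1 knockouts, to the 3 groups of day 3 and last to day 2 wildtype. Neighbours in this order overlapped except at the steps below the day 2 KMT1 knockouts and above day 2 wildtype, and the lowest KMT1 knockout library of day 3, at 11.79 CPM, was just below the higher wildtype library of day 2, at 11.83 CPM. In these descriptions the choice of the gene used the day 2 libraries, so no test is given.

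PRXL2B was most abundant at day 2, and its level there was moderately higher in the knockouts. KMT5A knockouts had 48.2 and 49.8 CPM at day 2. KMT1 knockouts had 45.5 and 48.8 CPM. Wildtype had 37.6 and 33.2 CPM, below each of the knockout libraries. The means were 49.0 ± 1.15 CPM, 47.1 ± 2.30 CPM and 35.4 ± 3.08 CPM for KMT5A knockouts, KMT1 knockouts and wildtype (SD, n = 2 each). The log2 fold change was 0.47 in KMT5A knockouts (SE 0.156, 95% interval 0.11 to 0.83, unadjusted p 0.0178, edgeR adjusted p 0.127), in a comparison that called 9.07% of genes. It was 0.41 in KMT1 knockouts (SE 0.156, 95% interval 0.05 to 0.78, unadjusted p 0.0305, edgeR adjusted p 0.178), where 9.97% of genes were called. As folds these are 1.38 (1.08 to 1.78) and 1.33 (1.04 to 1.71).

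The call for PRXL2B at day 2 depended on the test. Neither difference passed the adjusted threshold in edgeR over all libraries. Both passed it with DESeq2 (adjusted p 0.0103 for KMT5A and 0.0242 for KMT1), with limma voom (0.0047 and 0.0053), and in edgeR on the compared libraries alone (0.024 and 0.0349). Both also passed without the 2 day 3 libraries rich in ribosomal RNA (edgeR adjusted p 0.0243 and 0.0332). The KMT5A difference further passed without KMT1 knockout replicate 1 of day 3 (log2 fold change 0.51, edgeR adjusted p 0.044) and without replicate 2 of that group (0.51, edgeR adjusted p 0.0438). Between the knockouts at day 2 the log2 fold change of KMT5A over KMT1 was 0.06 (95% interval -0.31 to 0.42, edgeR adjusted p 1), and 0.147% of genes were called there. Without KMT1 knockout replicate 1 of day 2 it was -0.0070.

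At day 3 PRXL2B separated both knockouts from wildtype. The knockouts themselves nearly met, at 13.57 CPM in KMT5A knockout replicate 2 and 13.54 CPM in KMT1 knockout replicate 1. KMT5A knockouts had 16.1 and 13.6 CPM, from counts of 709 and 780. KMT1 knockouts had 13.5 and 10.2 CPM, from counts of 942 and 559. Wildtype had 2.15 and 2.55 CPM, from counts of 158 and 157. All 4 knockout libraries lay above both wildtype libraries, and the means were 14.8 ± 1.78 CPM, 11.9 ± 2.39 CPM and 2.35 ± 0.283 CPM for KMT5A knockouts, KMT1 knockouts and wildtype (SD, n = 2 each). The fold change was 6.32 for KMT5A and 5.06 for KMT1, or 2.66 and 2.34 on the log2 scale. Among genes above 0 in all 4 libraries these were rank 17 of 11658 for KMT5A and rank 16 of 11806 for KMT1. No test is given, because these values led to the choice of the gene. KMT5A knockout replicate 1 and KMT1 knockout replicate 2, the libraries rich in ribosomal RNA, held the higher and the lower PRXL2B level of their groups.

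PRXL2B fell with age in each genotype, as a description. The day 3 level was 30.2% of the day 2 level in KMT5A knockouts, 25.1% in KMT1 knockouts and 6.63% in wildtype. The log2 change of day 3 over day 2 was -1.73 in KMT5A knockouts, -1.99 in KMT1 knockouts and -3.92 in wildtype. By mean level, PRXL2B moved to percentile 48.5 of detected genes at day 3 in KMT5A knockouts and 45.5 in KMT1 knockouts, against 19.3 in wildtype. The knockout effect at day 3 minus that at day 2 was -4.05 for KMT5A and -3.82 for KMT1 in PTGS2, and 2.19 and 1.92 in PRXL2B, on the log2 scale.

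Per kilobase of exon, a rough scale for setting levels side by side between genes, the 2 genes had close levels in day 2 knockouts. The length was that covered by all transcripts, 5229 bases over 9 transcripts for PTGS2 and 1375 bases of 1 transcript for PRXL2B. Which PTGS2 transcripts were present was not examined, so its level per kilobase may be understated. PTGS2 had 33.9 CPM per kilobase and PRXL2B 35.7 in KMT5A knockouts, and 31.4 and 34.3 in KMT1 knockouts, while day 2 wildtype had 1.97 of PTGS2 and 25.7 of PRXL2B. At day 3 the levels per kilobase of PTGS2 and PRXL2B were 2.54 and 10.8 in KMT5A knockouts, 2.75 and 8.62 in KMT1 knockouts and 2.45 and 1.71 in wildtype.

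Other genes that make, move, sense or degrade prostaglandins and related lipids were taken from a list of 88 symbols, of which 53 were in the table, as 85 gene models, and 74 models had enough counts to be tested. At day 2, in KMT5A knockouts, edgeR called 0 of 74, where 9.07% of all genes were called, with 8 at an unadjusted p under 0.05, while DESeq2 called 5 and limma voom 8. In KMT1 knockouts, where 9.97% of all genes were called, edgeR called 1, which was lower in the knockouts but is replaced by a higher one with DESeq2's size factors, with 8 at an unadjusted p under 0.05, while DESeq2 called 7 and limma voom 13. Among pathway genes above 0 in all 4 libraries, log2 fold changes spanned -0.69 to 0.69 for KMT5A and -0.69 to 0.85 for KMT1. The highest was that of DAGLA, a lipase that makes the endocannabinoid 2-arachidonoylglycerol, in both knockouts. Median values were -0.10 for KMT5A and -0.06 for KMT1, and -0.04 over all genes of the same kind in each comparison.

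The single call at day 2 was PTGES3, a co-chaperone also known as the cytosolic prostaglandin E synthase. Its model PM05698 had 336 and 336 CPM in KMT1 knockouts, against 416 and 415 CPM in wildtype, and its log2 fold change was -0.31 (edgeR adjusted p 0.025). This call was lost when any of 8 of the 12 libraries was left out, where the value was -0.29 to -0.27, and also with library totals alone. A second PTGES3 model, PM04233, averaged 34.6 CPM in KMT5A knockouts, 38.1 CPM in KMT1 knockouts and 37.6 CPM in wildtype at day 2. PLA2G4A, the phospholipase that supplies arachidonic acid to PTGS2 in mammals, averaged 1.96 CPM in KMT5A knockouts, 1.94 CPM in KMT1 knockouts and 2.14 CPM in wildtype at day 2. HPGDS, a prostaglandin D synthase, averaged 375, 377 and 404 CPM in the same order and was not called. The prostaglandin receptors that were above 0 at day 2 were not called either: PTGER3 averaged 10.9 CPM in KMT5A knockouts, 13.1 CPM in KMT1 knockouts and 8.82 CPM in wildtype, and was listed at 0 in the day 3 libraries of each genotype.

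At day 3, edgeR called 5 of the 74 pathway genes in KMT5A knockouts, 4 higher and 1 lower, where 5.3% of all genes were called, 3.33% higher and 1.97% lower. In KMT1 knockouts it called 8, 7 higher and 1 lower, where 6.26% were called, 4.67% higher and 1.59% lower. The median log2 fold change was 0.02 for KMT5A and 0.07 for KMT1, against -0.01 and 0.00 over all genes above 0. All these calls were lost when only the 4 compared libraries were fitted, which left 0 in both knockouts, with 9 genes for KMT5A and 13 for KMT1 at an unadjusted p under 0.05. Without the 2 libraries rich in ribosomal RNA the counts were 8 for KMT5A and 13 for KMT1.

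The lipoxygenase, leukotriene and epoxide branch, whose lipoxygenases oxidize arachidonic and other fatty acids to hydroperoxides, held 20 of the 74 tested models. At day 3 it held 4 of the 5 KMT5A calls, 3 higher and 1 lower, and 4 of the 8 KMT1 calls, all higher. The shares of all genes called were 3.33% higher and 1.97% lower for KMT5A, and 4.67% higher and 1.59% lower for KMT1. All the branch calls were lost when only the 4 compared libraries were fitted. ALOX5 model PM21507, a match to the lipoxygenase that starts leukotriene synthesis, had 214 and 198 CPM in KMT5A knockouts and 219 and 206 CPM in KMT1 knockouts, against 133 and 136 CPM in wildtype. The groups did not overlap, with log2 fold changes of 0.61 (edgeR adjusted p 0.000458) and 0.66 (edgeR adjusted p 0.000485). ALOXE3, an epidermis-type lipoxygenase, had 118 and 106 CPM in KMT5A knockouts and 111 and 110 CPM in KMT1 knockouts, against 71.4 and 75.1 CPM in wildtype. Its log2 fold changes were 0.61 and 0.59 (edgeR adjusted p 0.00125 and 0.0018). A second ALOX5 model, PM12316, had 4.21 and 5.29 CPM in KMT1 knockouts, against 1.49 and 2.01 CPM in wildtype. It rose by 1.44 on the log2 scale there (edgeR adjusted p 0.0044). In KMT5A knockouts its log2 fold change was 0.74, and it was not called. ALOX5 was carried by 3 models, and the remaining model was not among the day 3 calls of either knockout. How reads shared between copies were counted is not given, so the split between copies is uncertain.

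CYP4F2, a cytochrome P450 that inactivates leukotrienes by omega-hydroxylation, had 9.46 and 8.91 CPM in KMT5A knockouts and 11.7 and 9.62 CPM in KMT1 knockouts at day 3, against 5.89 and 5.19 CPM in wildtype. Its log2 fold changes were 0.73 (edgeR adjusted p 0.0117) and 0.95 (edgeR adjusted p 0.00365). The KMT5A call was lost without KMT5A knockout replicate 1 (log2 fold change 0.68) and without wildtype replicate 2 (0.61). CBR1, a carbonyl reductase that converts E-type to F-type prostaglandins, had 29.2 and 27.8 CPM in KMT5A knockouts and 31.4 and 27.9 CPM in KMT1 knockouts, against 18.2 and 17.5 CPM in wildtype. It rose by 0.67 for KMT5A (edgeR adjusted p 0.0049) and 0.73 for KMT1 (edgeR adjusted p 0.00323) on the log2 scale, and the KMT5A call was lost without wildtype replicate 2 (0.62, edgeR adjusted p 0.0561).

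HPGD, which inactivates prostaglandins by oxidation, had 12.006 and 9.80 CPM in KMT1 knockouts at day 3, against 19.0 and 18.1 CPM in wildtype. Its log2 fold change was -0.77 (edgeR adjusted p 0.0206), and the call was lost without KMT1 knockout replicate 2 (-0.58), without wildtype replicate 1 (-0.69) and without wildtype replicate 2 (-0.80). In KMT5A knockouts HPGD averaged 15.99 CPM and was not called. FADS1 and DAGLB, a fatty acid desaturase and a lipase on the supply side, rose in KMT1 knockouts by 0.61 and 0.70 on the log2 scale (edgeR adjusted p 0.0215 and 0.0295), and these calls were lost in 4 and 9 of the 12 fits that left out 1 library. EPHX1, an epoxide hydrolase, had 1.497 and 1.83 CPM in KMT5A knockouts, against 3.94 and 3.91 CPM in wildtype (log2 fold change -1.24, edgeR adjusted p 0.0481), and was lost in 9 of those 12 fits. With library totals in place of TMM the CBR1, FADS1, DAGLB, HPGD and EPHX1 calls were lost, as were the KMT5A calls of ALOX5, ALOXE3 and CYP4F2.

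**Figure D2:**
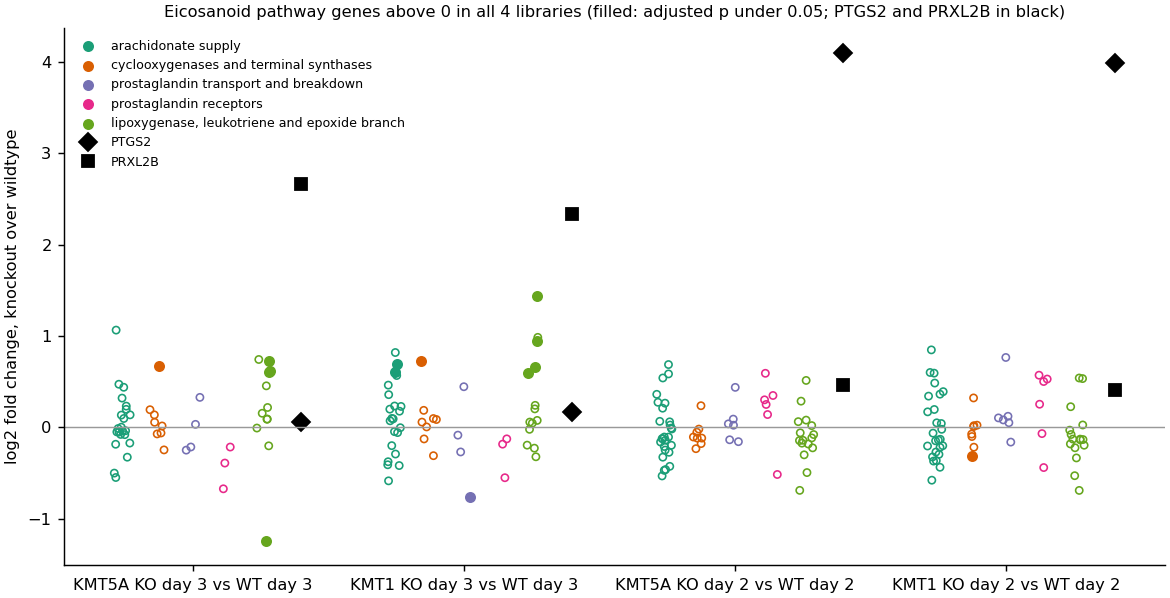
Log2 fold change of each knockout over wildtype at day 3 and day 2 for pathway genes above 0 in all 4 compared libraries, coloured by role; filled points passed an adjusted p of 0.05 in edgeR, and PTGS2 and PRXL2B are drawn in black, with no meaning in their fill. PTGS2 at day 2 stood at 4.10 for KMT5A and 3.99 for KMT1, outside the other pathway genes, which lay between -0.69 and 0.85. PTGS2 was chosen by these day 2 values.

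From day 2 to day 3 of wildtype development, 49 of the 74 pathway genes were called, 14 higher and 35 lower at day 3, where 66.1% of all genes were called, 29% higher and 37% lower. Of the 49, 13 were listed at 0 in both libraries of a group. The median log2 change over the pathway genes above 0 was -0.51, against -0.04 over all genes above 0. The genes that were higher in day 3 knockouts had the following values in this comparison, which shares the day 3 wildtype libraries: -2.43 for ALOX5 model PM21507, -5.34 for ALOX5 model PM12316, -1.96 for ALOXE3, -3.49 for CYP4F2, -1.19 for CBR1, -2.18 for FADS1 and -3.57 for DAGLB. PRXL2B, described with no test, stood at -3.92. HPGD, called lower in day 3 KMT1 knockouts, stood at 1.66. PTGES3 model PM05698, called lower in KMT1 knockouts at day 2 and not at day 3, stood at 1.44. The value of EPHX1, called lower in day 3 KMT5A knockouts, is not given here. The knockout effect itself differed between days for 5 pathway genes in KMT5A, 4 more positive at day 3, and for 9 in KMT1, 8 more positive at day 3, by edgeR's test of that difference. Over all genes 9.65% were called for KMT5A and 10.2% for KMT1 in that test.

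Genes known in mammals to control the transcription or the stability of PTGS2 transcripts were taken from a list of 31 symbols, of which 17 were found, as 39 models with 35 tested. At day 2, 8 were called in KMT5A knockouts, 4 higher and 4 lower, where 2.64% of genes were called higher and 6.43% lower. In KMT1 knockouts 8 were called, 5 higher and 3 lower, where 3.18% were called higher and 6.79% lower. Of these 8, 2 models were listed at 0 in a group. RELA, a subunit of the transcription factor NF-kappa-B, had 293 and 295 CPM in KMT5A knockouts and 283 and 292 CPM in KMT1 knockouts, against 230 and 221 CPM in wildtype. It rose by 0.38 and 0.35 on the log2 scale (edgeR adjusted p 0.0032 and 0.00437). ZFP36L1 model PM14947, an RNA-binding protein that promotes decay of AU-rich transcripts, had 35.5 and 36.0 CPM in KMT5A knockouts and 38.1 and 35.3 CPM in KMT1 knockouts, against 24.9 and 25.3 CPM in wildtype. Its log2 fold changes were 0.51 and 0.55 (edgeR adjusted p 0.0121 and 0.00804). The RELA calls held with any 1 library left out, while the ZFP36L1 call was lost for KMT5A without any 1 of the 4 compared libraries (0.51 to 0.53) and for KMT1 without KMT1 knockout replicate 1 (0.52) or wildtype replicate 1 (0.56).

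Other regulators moved the other way or in 1 knockout only by this threshold. CREB1 model PM15882, a cyclic AMP-responsive factor, had 668 and 675 CPM in KMT5A knockouts and 641 and 654 CPM in KMT1 knockouts at day 2, against 822 and 823 CPM in wildtype (log2 fold changes -0.29 and -0.34, edgeR adjusted p 0.0166 and 0.00775). That call was lost without any 1 of the compared libraries, with values of -0.29 to -0.28 for KMT5A and -0.34 to -0.31 for KMT1, and for KMT5A also without either wildtype library of day 3 (-0.25). ATF4, a factor of the stress response, fell by 0.29 and 0.21 (edgeR adjusted p 0.00229 and 0.00761), and its KMT1 call was lost without any 1 of the compared libraries (-0.20 to -0.18). EGR1, an immediate-early factor, had 1.76 and 1.28 CPM in KMT5A knockouts, against 3.20 and 2.83 CPM in wildtype (log2 fold change -0.99, edgeR adjusted p 0.0177), a call lost without KMT5A knockout replicate 2 (-0.76) and without either wildtype library (-0.89 and -1.06). CEBPA model PM00864 rose in KMT5A knockouts by 0.65 (edgeR adjusted p 0.00307). FOS model PM06903 had 2.36 and 2.23 CPM in KMT1 knockouts, against 1.15 and 0.983 CPM in wildtype (log2 fold change 1.11, edgeR adjusted p 0.0113), a call lost without KMT1 knockout replicate 1 (1.09), KMT1 knockout replicate 2 (1.16) or wildtype replicate 2 (1.02). FOS model PM14397 rose in KMT5A knockouts by 0.63 (edgeR adjusted p 0.0106), a call lost without KMT5A knockout replicate 2 (0.60) or wildtype replicate 1 (0.59). CELF2 model PM07488 in KMT5A knockouts (-0.29) and TIA1 in KMT1 knockouts (-0.20), both RNA-binding proteins, were lost in 9 and in 12 of the 12 fits that left out 1 library. With library totals in place of TMM scaling, 1 of the 35 was called for KMT5A and 2 for KMT1. The day 2 calls of RELA, ZFP36L1, CREB1, ATF4, EGR1, FOS model PM14397, CELF2 and TIA1 were lost, and those of CEBPA and FOS model PM06903 were kept.

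At day 3 PTGS2 was not called in either knockout. Of the 35 regulators tested, 6 were called in KMT5A knockouts, 4 higher and 2 lower. In KMT1 knockouts 4 were called, 1 higher and 3 lower. Over all genes 3.33% were called higher and 1.97% lower for KMT5A, and 4.67% and 1.59% for KMT1. With only the compared libraries fitted, 2 and 0 were called. ATF3, a stress-induced factor, had 14.9 and 12.4 CPM in KMT5A knockouts and 6.41 and 6.68 CPM in KMT1 knockouts, against 4.22 and 4.22 CPM in wildtype. It rose by 1.69 (edgeR adjusted p 0.000176) and 0.63 (edgeR adjusted p 0.0144), and the KMT1 call was lost without wildtype replicate 1 (0.68) and without wildtype replicate 2 (0.63). ZFP36L1 model PM14443 had 6.96 and 6.94 CPM in KMT5A knockouts and 8.24 and 10.1 CPM in KMT1 knockouts, against 30.9 and 35.02 CPM in wildtype (log2 fold changes -2.24 and -1.85, edgeR adjusted p 0.00186 and 0.00361). CEBPA rose in KMT5A knockouts by 1.05 (edgeR adjusted p 0.000458), and CELF2 model PM11839, an RNA-binding protein that stabilizes PTGS2 transcripts and limits their translation, fell by 0.91 (edgeR adjusted p 9.79e-05). JUN model PM15983, an immediate-early factor, had 122 and 112 CPM in KMT5A knockouts, against 63.6 and 67.3 CPM in wildtype (log2 fold change 0.84, edgeR adjusted p 0.0067), a call lost without wildtype replicate 1 (0.81). FOS model PM06903 rose by 0.93 in KMT5A knockouts, a call lost in 7 of the 12 fits that left out 1 library. ZFP36L1 model PM14947, higher in both knockouts at day 2, fell by 0.66 in KMT1 knockouts at day 3 (edgeR adjusted p 0.00615), and ATF4 fell by 0.24 there, a call lost without wildtype replicate 2 (-0.21).

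Relatives of PRXL2B were taken from a list of 16 peroxiredoxin, PRXL2 and thioredoxin symbols, of which 11 were found and tested. At day 2 edgeR called 1 in KMT5A knockouts, where 6.43% of all genes were called lower, and 2 in KMT1 knockouts, where 6.79% were. These calls were all lower, and with 11 genes such counts are near the share over all genes. TXN2, the mitochondrial thioredoxin, fell by 0.20 in KMT5A knockouts (edgeR adjusted p 0.0149) and by 0.26 in KMT1 knockouts (edgeR adjusted p 0.00521). PRXL2A, the nearest relative by name, fell by 0.39 in KMT1 knockouts (edgeR adjusted p 0.0134), to 29.9 and 30.2 CPM, against 39.9 and 38.98 CPM in wildtype. With library totals in place of TMM 0 were called at day 2. The PRXL2A call was lost without any 1 of the compared libraries (-0.39 to -0.36), and the TXN2 calls in 7 of 12 fits that left out 1 library for KMT5A and 3 for KMT1. At day 3 edgeR called 0 of the 11 in each knockout, where 5.3% of all genes were called for KMT5A and 6.26% for KMT1, so that a count of 0 among 11 is near the background, with 5 for KMT5A and 4 for KMT1 at an unadjusted p under 0.05. DESeq2 called 4 and 3 there, all higher, and limma voom 0 and 0. The highest of the 11 at day 3 was PRDX1, a cytosolic peroxiredoxin, at 0.83 for KMT5A and 0.69 for KMT1 on the log2 scale.

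The genes beside PTGS2 on chromosome 50 did not share its day 2 values. Of the 5 models on either side, 9 of 10 were tested, and their log2 fold changes spanned -0.73 to 0.21 in KMT5A knockouts and -0.45 to 0.01 in KMT1 knockouts. Of these 9, 5 were called for KMT5A and 4 for KMT1, all lower, where 6.43% and 6.79% of all genes were called lower. The nearest, GTF3C5, a subunit of a general factor of RNA polymerase III, lay 4389 bases away and stood at -0.73 for KMT5A (edgeR adjusted p 0.000468) and -0.30 for KMT1 (edgeR adjusted p 0.0136). CDK9, SURF4 and PMPCA were also lower in both knockouts, at -0.33 to -0.22 for KMT5A and -0.35 to -0.25 for KMT1. GTF3C5 and CDK9 overlap on opposite strands, as do SURF4 and PMPCA, and the strand setting of the counting is not given, so their counts may be shared. With library totals in place of TMM, 1 neighbour was called for KMT5A and 0 for KMT1, and with 1 library left out 1 to 4 and 0 to 4 were called.

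Beside PRXL2B on chromosome 3, the 9 tested neighbours spanned -0.45 to 1.11 for KMT5A and -1.10 to 0.29 for KMT1 at day 3. The -1.10 was that of MFRP, whose KMT1 knockout counts were 156 and 0 (SE 1.95). By edgeR 0 of the 9 were called in each knockout, where 5.3% of all genes were called for KMT5A and 6.26% for KMT1, a count near the background for 9 genes. At an unadjusted p under 0.05 there were 2 in each; DESeq2 called 0 for KMT5A and 1 for KMT1, and limma voom the same numbers. HINFP, a zinc finger factor 4158 bases away, stood at -0.22 and -0.05. At day 2 edgeR called 2 of the 9 in each knockout, both lower, where 6.43% of all genes were called lower for KMT5A and 6.79% for KMT1. They were ATP12A, an ion pump, and SDHD, a subunit of succinate dehydrogenase. ATP12A stood at -1.32 for KMT5A and -1.29 for KMT1 (edgeR adjusted p 0.000502 and 0.000478). SDHD stood at -0.38 and -0.44 (edgeR adjusted p 0.0184 and 0.00904).

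**Figure D3:**
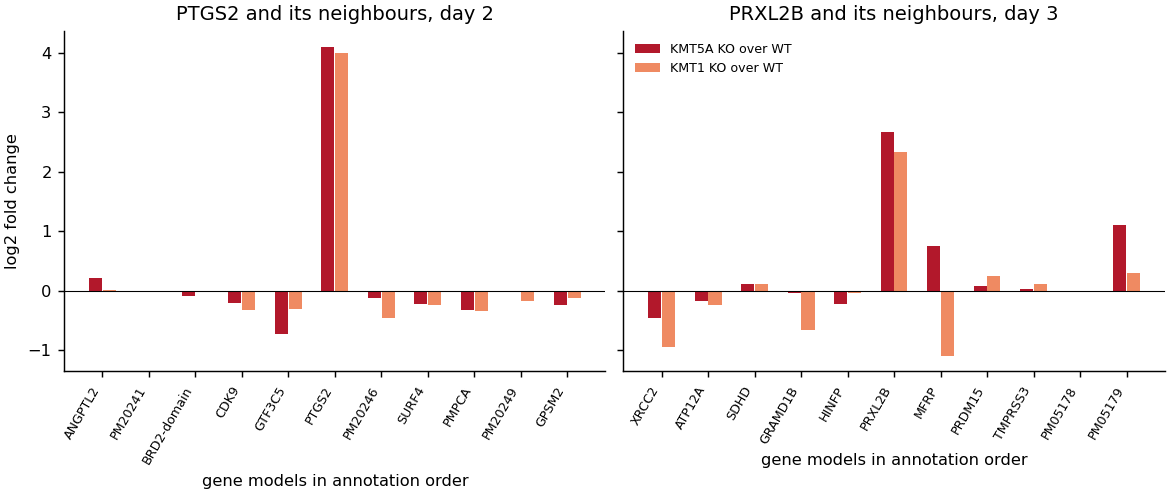
Log2 fold change of KMT5A and KMT1 knockouts over wildtype for PTGS2 and its 10 neighbours at day 2 (left) and for PRXL2B and its 10 neighbours at day 3 (right), in annotation order; models without enough counts have no bar. PTGS2 stood at 4.10 and 3.99 beside neighbours between -0.73 and 0.21, and PRXL2B at 2.66 and 2.34 beside neighbours between -1.10 and 1.11. The -1.10 is MFRP in KMT1 knockouts, from counts of 156 and 0.

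Genes with the pattern most like each of the 2 were ranked by the root mean square (RMS) difference of log2 CPM, centred on each gene's mean, over the 12 libraries and 9234 candidate genes. For PTGS2, whose own RMS about its mean was 1.79, the closest was LONRF1, a RING finger protein, at 0.66. LONRF1 averaged 65.8 CPM in KMT5A knockouts, 49.7 CPM in KMT1 knockouts and 9.68 CPM in wildtype at day 2, and 12.9, 10.6 and 6.94 CPM in the same order at day 3. It was followed by RITA1 at 0.98, SLC35D1 at 1.01, CDC7 at 1.01 and OS9 at 1.08, a regulator of Notch signalling, a nucleotide sugar transporter, a kinase of replication origins and a lectin of protein quality control. SLC35D1 averaged 113 CPM in KMT5A knockouts, 107 CPM in KMT1 knockouts and 48.0 CPM in wildtype at day 2. In wildtype, the log2 change of day 3 over day 2 was -1.68 for SLC35D1, -1.63 for OS9 and -1.31 for CDC7. It was -0.69 for RITA1 and -0.48 for LONRF1, against 0.31 for PTGS2. In day 3 KMT1 knockouts over wildtype, RITA1 stood at -1.59, SLC35D1 at -0.28, OS9 at -0.16 and CDC7 at 0.04. LONRF1 stood at 0.61 there and PTGS2 at 0.17. The median candidate stood at 1.80, so the RITA1 to OS9 group was nearer to PTGS2 than most genes but shared less of its pattern than LONRF1.

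For PRXL2B, whose own RMS about its mean was 1.53, the closest was TDH, annotated as an epimerase domain protein, at 0.42. TDH averaged 35.1 CPM in KMT5A knockouts, 36.4 CPM in KMT1 knockouts and 14.3 CPM in wildtype at day 3, and 170, 149 and 129 CPM in the same order at day 2. PPP3R1 at 0.45, CFAP119 at 0.49, DST at 0.50 and CYCS at 0.52 followed. DST, a linker of the cytoskeleton, averaged 47.4 CPM in KMT5A knockouts, 43.6 CPM in KMT1 knockouts and 20.2 CPM in wildtype at day 3. CYCS, the electron carrier cytochrome c, was at 0.32 CPM in KMT5A knockouts, 0.336 CPM in KMT1 knockouts and 0.0813 CPM in wildtype there, so few counts stood behind its pattern. The median candidate stood at 1.54. These distances rank genes over libraries that share all groups, and no p goes with them.

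**Figure D4:**
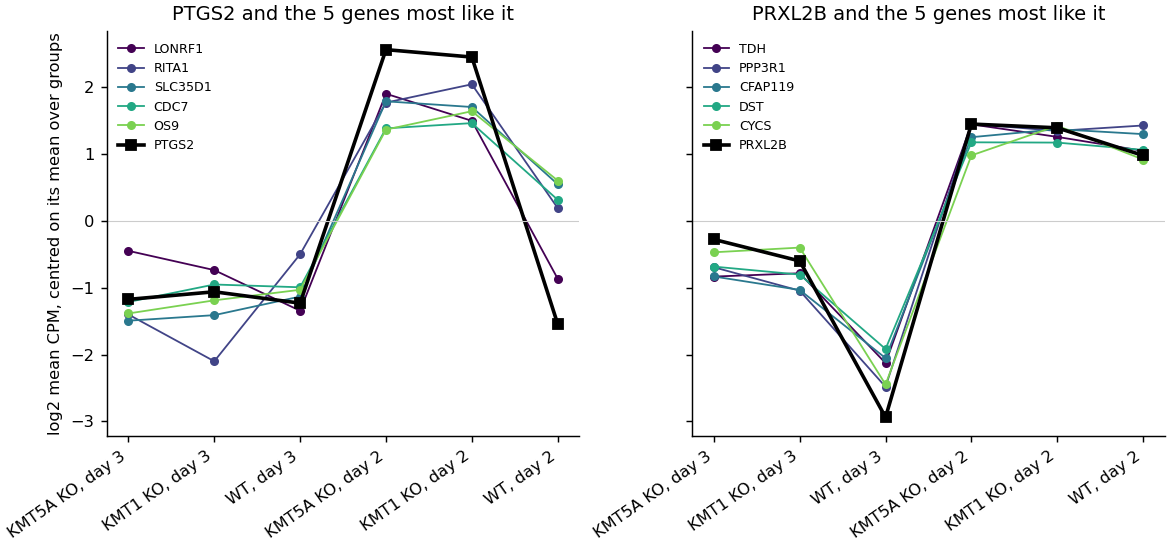
Group means in log2 CPM, centred on each gene's mean over the 6 groups, for PTGS2 (left) and PRXL2B (right) in black and the 5 genes most like each in colour. The genes around PRXL2B followed it closely, with RMS differences of 0.42 to 0.52, and those around PTGS2 less so, with 0.66 to 1.08.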

How the data were processed

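RNA was measured in 12 libraries, 2 per group, grouped by their titles. The values were the deposited table of estimated counts per gene and library, called raw counts per the labels. They were already whole, but 8 to 29 genes per library held a value of 1 to 3 and 7129 to 10076 were at 0, so an exact 0 can be a failed estimate. PTGS2 and PRXL2B were above 0 in all libraries. Per the submitters' processing notes, HISAT2 2.2.1, StringTie 2.2.3 and DESeq2 1.42.1 were used; the genome build, strand setting and handling of shared reads are not given in the sources used here. Gene positions and other annotation columns came from the deposited annotation, per the file headers.

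Counts were fitted in R 4.3.3 with edgeR 4.0.16 (quasi-likelihood F test, TMM, default filter, 15615 genes tested, 1 model of 6 groups with 6 residual degrees of freedom, Benjamini-Hochberg adjustment over all genes tested in each of 11 comparisons). An adjusted p under 0.05 was called. Standard errors were derived from the F statistic, intervals are 95%, and a prior count of 2 was used for log2 CPM. Alternatives were DESeq2 1.42.0, limma 3.58.1 voom with a weight per group, other scalings, no filter, the compared libraries alone, a replicate block, a term for the 2 libraries rich in ribosomal RNA and leaving out each library. Leaving out both those libraries was added after seeing the data. The fit was tested on simulated data. Tables were joined with pandas 2.3.3 under Python 3.11.15, and matplotlib 3.10.9 drew the figures.

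The genes and lists were chosen with earlier results of these data known. Named list genes were those called in a knockout comparison and above 0 in all 4 of its libraries, with PTGES3, PLA2G4A and HPGD always named, the 5 models on either side of each gene and the 5 genes most like it. DAGLA, HPGDS, PTGER3 and PRDX1 were named after their values were seen. Replicates are biological per the labels, from 2 pools of embryos per condition. In the main fit the p-values rest on the spread between replicate pools estimated over all 12 libraries, not over the compared groups alone. Correlations of the replicate differences between groups were -0.218 to 0.0751, so replicate numbers did not pair the samples. Total counts per library set the precision of low genes: PRXL2B in day 3 wildtype rested on 157 and 158 counts.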

Additional observations from a re-analysis of the deposited data

Results flagged for a closer look

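The effect of a knockout on the genes named beside PTGS2 and PRXL2B differed between days in 26 cases, each by edgeR's test of the difference itself (day 3 effect minus day 2 effect, adjusted over all genes). The genes in these cases had been called in a knockout comparison of the same libraries. That choice favours a difference between days, so the 26 cases are a description. No explanation was weighed. For PTGS2 and PRXL2B the choice also used those libraries, and they are not among the 26 cases.

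Among the called genes of the lipoxygenase branch the effect was more positive at day 3. Over the 20 tested models of the branch, the difference was positive in 12 and negative in 8 for KMT5A. For KMT1 it was positive in 16 and negative in 4. EPHX1 had the lowest log2 difference among models above 0 in all compared libraries, at -1.09 for KMT5A and -0.55 for KMT1, and was not called. ALOX5 model PM21507 differed with an adjusted p of 0.00284 for KMT5A and 0.0014 for KMT1, ALOXE3 with 0.0038 and 0.00328, and CYP4F2 with 0.0131 and 0.00648. ALOX5 model PM12316 differed for KMT1 (adjusted p 0.012). In the prostaglandin genes, CBR1 was more positive at day 3 for KMT5A (0.011) and for KMT1 (0.0109), as was PTGES3 model PM05698 for KMT1 (0.0334) and FADS1 on the supply side (0.0174), while HPGD was more negative (0.0363).

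Among regulators of PTGS2 transcripts, ZFP36L1 model PM14947 was more negative at day 3 for KMT5A (adjusted p 0.00597) and KMT1 (0.00232), and CREB1 model PM15882 more positive (0.0112 and 0.00508). For KMT5A, ATF3 (0.00226) and ATF4 (0.00403) were more positive, and CELF2 model PM11839 (0.000962) and RELA (0.00752) more negative. For KMT1, FOS model PM06903 (0.00742) and CEBPA model PM00864 (0.0325) were more negative. Among relatives of PRXL2B, PRXL2A (0.0471 for KMT5A and 0.0133 for KMT1) and TXN2 (0.0118 and 0.0116) were more positive at day 3. Over all genes, 9.65% were called for KMT5A and 10.2% for KMT1 in these comparisons. These shares are no background for genes that were named because they had been called.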

How the results depend on the processing

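The described fold changes kept their direction in every alternative. PTGS2 at day 2 in KMT5A knockouts was 3.92 to 4.34 (log2) when 1 library was left out, and PRXL2B at day 3 in KMT5A knockouts was 2.48 with library totals alone, a scaling that moved the median of all genes by -0.13. PTGS2 at day 3 turned sign without changing its call: for KMT5A it was -0.10 with library totals alone and -0.0103 to 0.11 with 1 library left out, for KMT1 -0.12 to 0.45, and between the knockouts -0.40 to 0.17. PRXL2B at day 2 passed the threshold with DESeq2 (0.50 for KMT5A, 0.44 for KMT1), limma voom (0.47 and 0.42), the compared libraries alone (0.51 and 0.45) and without both libraries rich in ribosomal RNA (0.51 and 0.45). With 1 library left out it was 0.40 to 0.57 for KMT5A and 0.35 to 0.52 for KMT1, and -0.0070 to 0.10 between the knockouts. Leaving out a library leaves 1 in its group, which is assumed to vary like the others.

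Counts of pathway genes called moved as follows, KMT5A before KMT1. At day 3 they were 14 and 16 with DESeq2, 0 and 4 with library totals alone, 0 and 0 on the compared libraries alone, 8 and 13 without both libraries rich in ribosomal RNA, 4 to 10 and 6 to 11 with 1 library left out, and 3 with voom for KMT5A. At day 2 they were 5 and 7 with DESeq2, 8 and 13 with voom, 5 and 10 on the compared libraries, 4 and 4 with a term for ribosomal RNA, 5 and 6 without both rich libraries, and 0 to 2 in both with 1 library left out. They were 0 and 0 with library totals alone, and 1 in KMT5A knockouts with DESeq2's size factors, under which the single KMT1 call was a higher one in place of a lower one. For the difference between days they were 14 and 15 with DESeq2, 0 and 1 with library totals alone, 9 and 16 without both rich libraries, and 2 to 8 and 3 to 10 with 1 library left out. In wildtype development the count was 42 to 52 with 1 library left out. Over all alternatives, calls of single named genes were kept 677 times and lost 184 times, with 0 turned in sign.

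Replicate numbers did not pair the samples. With the number as a block, 4 and 8 pathway genes were called at day 3 and 0 and 1 at day 2, PTGS2 at day 3 was 0.06 and 0.15, and PRXL2B at day 2 was 0.47 and 0.42, with no call of these 2 genes changed.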
